A study of Mus musculus with 20 samples.

Results

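The 207 genes described here are the expressed members of the mouse Zfp series of zinc finger genes in embryonic stem cells (ESCs). They were chosen by name and by input level: genes whose symbol is Zfp followed by a number and at most 1 letter, leaving out the stem cell marker Zfp42, with a mean of at least 1 TPM over the 10 input libraries. TPM is the share of a gene among all transcripts of a library, corrected for transcript length and put on a fixed total. Of 360 genes with such a name, 207 reached this level, out of 11784 genes of the series that did and 23284 genes listed. Because the members were selected on input TPM, their input levels are a description. The excess of a ratio of IP to input was taken over other genes that reached the same level. The shares of genes called were set beside all 13710 genes tested, some of them below that level. The members nearest to the limit were Zfp467 at 1.03 TPM and Zfp28 at 1.06 TPM, and the genes just below it were Zfp786 at 0.975 TPM and Zfp385c at 0.971 TPM.

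The series asked which RNAs are bound by the Tet proteins, enzymes that oxidise 5-methylcytosine. In 3 knock-in lines of wild-type mouse ESCs, made with CRISPR, the endogenous Tet1, Tet2 or Tet2ΔRBD carried a C-terminal Flag, HA and Twin-Strep tag, and Tet2ΔRBD lacked the RNA-binding domain of Tet2. The lines came from picked clones and all carried the tag, so no untagged control is part of the values below. RNA immunoprecipitated (IP) with the anti-Flag antibody from cytoplasmic extract was sequenced beside input RNA in 2 pairs of the Tet1 line, 4 pairs of the Tet2 line and 4 pairs of the Tet2ΔRBD line, and a difference between IP and input cannot be told apart from a difference between those RNA fractions. The 20 libraries held from 21078995 to 37576638 expected counts. ESC markers were high in every input, with Pou5f1 from 2000 to 3191 TPM. Of 7 markers of early differentiation, T and Pax6 stayed below 1 TPM. Over the inputs Gata4 ranged from 1.99 to 43.7 TPM, Gata6 from 1.74 to 26.1 TPM and Sox1 from 7.29 to 19.7 TPM. Sox17 ranged from 0.85 to 19.0 TPM and Foxa2 from 0.19 to 5.16 TPM. The labels do not say which pairs were separate cultures, so p-values measure the spread between these libraries.

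Most Zfp proteins are built from C2H2 zinc fingers, short loops in which a pair of cysteines and a pair of histidines hold a zinc ion and neighbouring fingers read the bases of DNA in turn. Many also carry a KRAB domain at the amino end, which recruits Trim28 and, through it, Setdb1 and the HP1 proteins to silence chromatin, above all at retroelements and imprinted regions. KRAB zinc finger genes form fast-evolving clusters, and their transcripts tend to be rare.

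In the coding transcripts of the annotation, 204 of the 207 genes had a protein to read. At least 2 C2H2 fingers together with a KRAB motif were found in 76 genes, 111 genes had at least 2 fingers without the motif, and 17 had 1 finger or none. The last class holds Zfp36 (tristetraprolin), which has fingers of another type, so the symbol covers more than the C2H2 family. Being in this class depends on the spelling of the motif and on the annotated transcript, so it does not place a protein outside that family. The class also holds Zfp598, a ubiquitin ligase of stalled ribosomes, and Zfp748, whose annotated coding transcript has no finger. The KRAB class had a median of 11.5 fingers, a median input of 2.16 TPM and a median transcript GC content of 45.8%, against 7 fingers, 7.55 TPM and 52.6% in the class without the motif. Chromosome 7 alone held 60 of the 202 genes with a single place in the annotation (29.7%), compared with 7.98% of other expressed genes.

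The coding DNA of 1 finger is shown for the genes on which the results turn, to let the shared frame be seen beside the different letters between. Each stretch of 84 bases lies in a coding exon, is read 5′ to 3′ on the coding strand from the mm9 genome, and has the codons of its zinc-binding cysteines and histidines in capitals. The first 4 genes were higher in the IP of every line, and the last pair lower in the IP of every line.
Zfp146: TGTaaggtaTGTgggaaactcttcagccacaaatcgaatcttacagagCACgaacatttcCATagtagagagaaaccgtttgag
Zfp472: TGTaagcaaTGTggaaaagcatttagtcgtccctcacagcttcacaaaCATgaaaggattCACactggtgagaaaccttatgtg
Zfp445: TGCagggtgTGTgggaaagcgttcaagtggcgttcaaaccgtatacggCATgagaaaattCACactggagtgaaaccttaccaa
Zfp59: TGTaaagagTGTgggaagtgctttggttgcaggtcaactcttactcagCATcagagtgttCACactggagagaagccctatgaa
Zfp275: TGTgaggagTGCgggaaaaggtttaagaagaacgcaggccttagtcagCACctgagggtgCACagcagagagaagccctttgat
Zfp384: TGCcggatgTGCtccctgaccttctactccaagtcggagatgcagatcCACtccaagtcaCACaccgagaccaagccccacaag

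These units lie at chr7:30947500-30947583 (minus strand), chr17:33114576-33114659 (plus), chr9:122762496-122762579 (minus), chr7:28638663-28638746 (plus), chrX:70598979-70599062 (plus) and chr6:124980817-124980900 (plus), in that order. The unit of Zfp59 shared 53 of 84 bases with those of Zfp146 and Zfp472, 54 with that of Zfp445 and 56 with that of Zfp275, whose transcript moved the other way. The unit of Zfp384 shared from 32 to 35 bases with the others. Reads of genes with such repeats can be divided between paralogs, but over whole transcripts the median member shared none of its 50-base words with another coding gene. The 7 members that shared over 20% were Zfp534, Zfp600, Zfp747, Zfp764, Zfp932, Zfp936 and Zfp955a, and their values are uncertain.

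A larger share of Zfp genes than of all genes was higher in the IP in each line, and a smaller share was lower. In the Tet2 line 47 of the 207 members were higher in IP than in input and 12 were lower, at an adjusted p under 0.05 in edgeR's quasi-likelihood test with pairs as blocks, in which all 207 passed the filter on low counts. Among all 13710 genes tested, 14.6% were called higher and 18.5% lower, and other genes with the members' distribution of input level and length were called higher at 18.9% and lower at 12.7%. In the Tet2ΔRBD line 37 members were higher and 11 lower, against 7.4% and 12.1% of all genes and 9.37% and 8.72% of like genes. In the Tet1 line 26 members were higher and 3 lower, against 2.72% and 3.18% of all genes and 3.56% and 2.15% of like genes. The members called higher were thus 22.7%, 17.9% and 12.6% of all members in the Tet2, Tet2ΔRBD and Tet1 lines. At an unadjusted p under 0.05 in either direction, edgeR gave 89, 86 and 71 members in these lines, against 45.0%, 35.4% and 23.5% of all genes.

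These counts moved with the libraries in the fit. Without either of the Tet1 pairs no member passed in the Tet1 line (edgeR; 38 and 35 at an unadjusted p under 0.05 in either direction without replicate 1 and 2, and DESeq2 with all pairs called 42), and without Tet2 replicate 3, Tet2 replicate 4 or Tet2ΔRBD replicate 3, which enter through the shared spread, 13, 14 and 14 were higher there. In the Tet2ΔRBD line 10 were higher without its replicate 1 and 8 without its replicate 3, and in the Tet2 line 31 without its replicate 1. Every call of a gene named below in the Tet1 line was lost without either Tet1 pair. In the Tet2ΔRBD line Zfp131, Zfp146, Zfp414, Zfp445, Zfp472 and Zfp748 each lost theirs without replicate 1 and without replicate 3, with edgeR adjusted p up to 0.101. The scale mattered for the lower calls: over expressed genes the median log2 ratio of IP to input in TPM lay above 0 in every pair, from 0.0132 to 0.379, whereas the fit on counts centred it within 0.057 of 0. On log2(TPM + 1) limma called 103 members higher and 2 lower in the Tet2 line, 87 and 0 in the Tet2ΔRBD line and 28 and 0 in the Tet1 line.

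By the rule that IP must exceed input in TPM in every pair, 136 members were targets in the Tet1 line (65.7%), 108 in the Tet2 line (52.2%) and 98 in the Tet2ΔRBD line (47.3%). The background over expressed genes was 50.5%, 47.0% and 31.1% in turn. Genes of like level and length reached 54.3%, 55.1% and 36.8%, so that in the Tet2 line the share of members was below that of like genes. The shares of the lines are not comparable with each other, since the Tet1 line had to pass in 2 pairs and the others in 4. Members below input in every pair numbered 41, 8 and 6 of 207 in the Tet1, Tet2 and Tet2ΔRBD lines, beside 32.3%, 13.4% and 9.57% of all expressed genes. Of genes of like level and length, 26.8%, 7.07% and 5.26% were below in every pair.

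The excess over like genes was small for the members as a whole and differed between the classes. For each pair, the log2 ratio of IP to input on TPM + 1 was taken for each member, less the median of other genes in the same bin of input level and effective length. The median of this difference over all members was 0.10 ± 0.03 (SD, n = 2 pairs) in the Tet1 line, 0.08 ± 0.03 (n = 4) in the Tet2 line and 0.10 ± 0.08 (n = 4) in the Tet2ΔRBD line, and was above 0 in every pair but replicate 4 of the Tet2ΔRBD line, at -0.01.

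In the KRAB class the median above like genes was 0.44 and 0.51 in the Tet1 pairs. It was 0.36, 0.16, 0.27 and 0.27 in Tet2 pairs 1 to 4. It was 0.46, 0.49, 0.35 and 0.03 in Tet2ΔRBD pairs 1 to 4, so replicate 4 of the Tet2ΔRBD line was the low one and its mean rose from 0.33 to 0.43 without it. The class of fingers without the motif lay around 0 in every line, at -0.01 ± 0.06 (SD, n = 2), -0.01 ± 0.08 (n = 4) and -0.00 ± 0.05 (n = 4), with pairs on both sides of 0. The KRAB class was the higher of the classes in each of the 10 pairs, by 0.49 ± 0.01, 0.27 ± 0.13 and 0.34 ± 0.20 (mean and SD over pairs) in the Tet1, Tet2 and Tet2ΔRBD lines. The motif was widened after known KRAB proteins had been missed and with values in view. The first, narrower motif took 43 genes with fingers, whose median above like genes was 0.51, 0.27 and 0.34, against 0.06, 0.04 and 0.04 in the other 144.

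**Figure D1:**
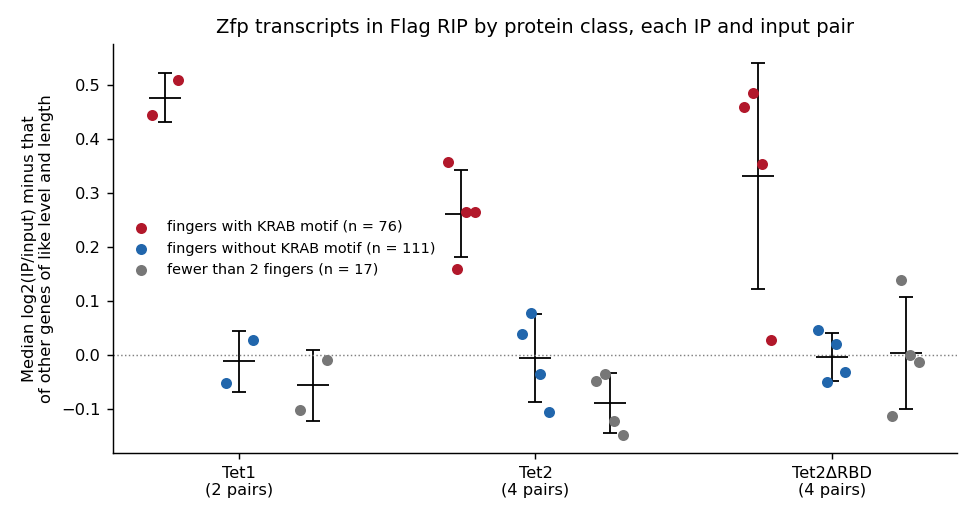
Median log2(IP/input) of each class of Zfp gene minus that of other genes of like input level and length (vertical axis), 1 point per IP and input pair, with the mean and SD over pairs in black. The KRAB class lies above the class without the motif in all 10 pairs, with its lowest value, 0.03, in replicate 4 of the Tet2ΔRBD line.

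Of the 76 genes of the KRAB class, 17 were higher and none lower in the Tet1 line, 25 were higher and 2 lower in the Tet2 line, and 25 were higher and none lower in the Tet2ΔRBD line (edgeR adjusted p under 0.05). The 2 lower genes were Zfp113 and Zfp688. Of the 111 genes with fingers but no motif, 7 were higher and 3 lower, 18 higher and 8 lower, and 9 higher and 10 lower in the same order of lines. The genes higher were 22.4%, 32.9% and 32.9% of the KRAB class and 6.31%, 16.2% and 8.11% of the class without the motif, beside 2.72%, 14.6% and 7.4% of all genes. Over the whole class without the motif, the shares in the Tet2 and Tet2ΔRBD lines were thus near the background, but not at every input level (below). The median fitted log2 ratio was 0.60, 0.53 and 0.62 in the KRAB class and -0.01, 0.07 and 0.03 in the class without the motif, beside -0.06, -0.03 and -0.04 over other expressed genes. Without replicate 1 or replicate 3 of the Tet2ΔRBD line, 8 and 5 genes of the KRAB class were higher in that line, and in the Tet1 line none was without either Tet1 pair, 9 and 10 without Tet2 replicates 3 and 4 and 10 without Tet2ΔRBD replicate 3 (edgeR).

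**Figure D2:**
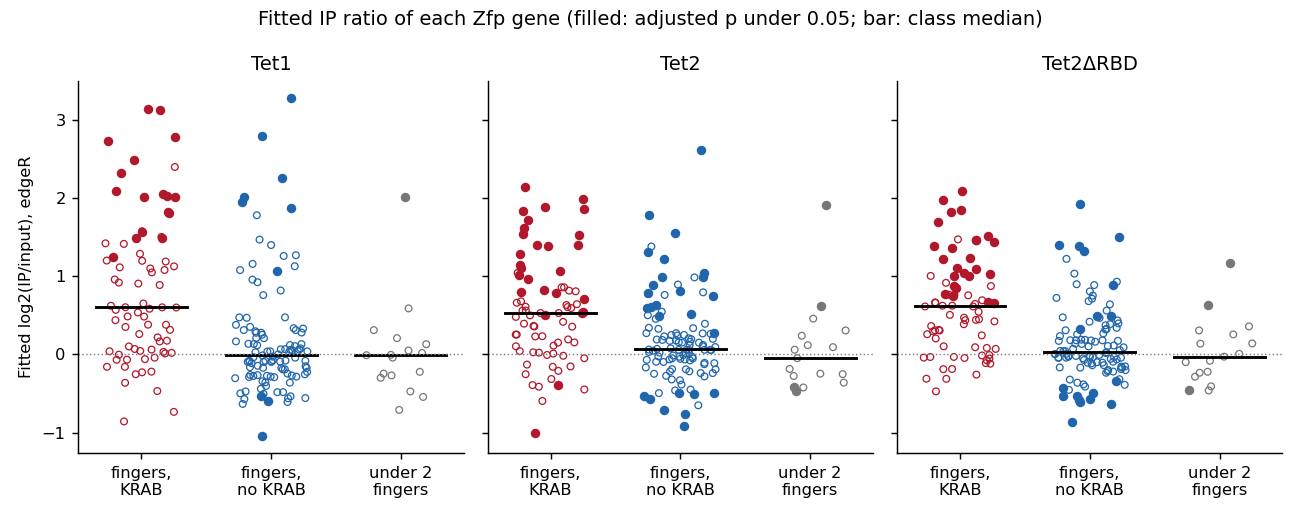
Fitted log2(IP/input) from edgeR (vertical axis) for each Zfp gene by class and line; filled points have an adjusted p under 0.05 and bars are class medians. In the KRAB class 17, 25 and 25 genes are filled above 0 in the Tet1, Tet2 and Tet2ΔRBD lines.

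The classes also differ in input level, so they were set side by side within ranges of it. Between 1 and 2 TPM, the KRAB class had 35 genes, of which 10 (28.6%), 16 (45.7%) and 16 (45.7%) were higher in the Tet1, Tet2 and Tet2ΔRBD lines, while of other genes at this level 4.87%, 15.9% and 8.71% were. Its median above like genes there was 0.75 ± 0.01, 0.45 ± 0.24 and 0.48 ± 0.37 (SD over pairs). The 14 genes of this level with fingers but no motif had medians of 0.01, 0.09 and 0.09. From 2 to 5 TPM the order was not kept in the Tet2 line, where the KRAB class lay 0.07 ± 0.06 above like genes and the class without the motif 0.11 ± 0.08. From 5 to 15 TPM the KRAB class, 16 genes, lay 0.46, 0.33 and 0.35 above like genes, and the class without the motif, 44 genes, lay at -0.00, -0.02 and -0.01. At 15 TPM and over only 4 KRAB genes were left, none of them called higher. Over all members of at least 5 TPM the median was -0.0084 in the Tet1 line, -0.014 in the Tet2 line and 0.0027 in the Tet2ΔRBD line.

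Zfp146 on chromosome 7 encodes OZF, a protein made of little but fingers and without a KRAB domain. In the Tet1 line it was at 1.73 and 1.12 TPM in input and at 14.7 and 15.7 TPM in IP. In the Tet2 line inputs 1 to 4 were at 0.82, 1.46, 1.51 and 1.19 TPM and the IPs at 15.3, 5.22, 10.1 and 9.64 TPM. In the Tet2ΔRBD line inputs were at 1.66, 0.72, 1.71 and 8.48 TPM and IPs at 20.4, 2.83, 11.9 and 11.9 TPM. IP and input did not overlap in the Tet1 and Tet2 lines, and did in the Tet2ΔRBD line, where input 4 was high and IP 2 low. The fitted log2 ratios were 3.28 ± 0.67, 2.61 ± 0.48 and 1.92 ± 0.47 (SE), with edgeR adjusted p of 0.0268, 0.0027 and 0.0189, and it led the members in the Tet1 and Tet2 lines.

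Zfp472, a KRAB gene on chromosome 17 with 12 fingers, was at 1.18 and 1.11 TPM in the Tet1 inputs and at 13.0 and 9.37 TPM in the IPs. The Tet2 inputs were at 0.77, 0.94, 1.52 and 1.72 TPM and the IPs at 12.6, 1.64, 8.26 and 9.35 TPM. The Tet2ΔRBD inputs were at 0.78, 0.23, 1.58 and 3.31 TPM and the IPs at 9.04, 1.45, 8.7 and 7.12 TPM. Each IP lay above its own input, but IP 2 of the Tet2 and Tet2ΔRBD lines fell among the inputs of the other pairs. The fitted log2 ratios were 3.13 ± 0.66, 2.14 ± 0.47 and 2.09 ± 0.47 (SE), with edgeR adjusted p of 0.0289, 0.00652 and 0.0137.

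Zfp445 on chromosome 9 is a KRAB protein that, with Zfp57, keeps the methylation of imprinted regions. Its input was 1.83 and 1.47 TPM in the Tet1 line and its IP 10.45 and 10.05 TPM. In the Tet2 line inputs were at 1.01, 1.27, 1.75 and 1.65 TPM and IPs at 12.7, 3.36, 7.66 and 6.92 TPM, again without overlap. In the Tet2ΔRBD line inputs were at 1.44, 0.41, 1.93 and 5.99 TPM and IPs at 17.7, 1.87, 8.86 and 8.65 TPM. There IP 2 lay below the inputs of pairs 3 and 4. The fitted log2 ratios were 2.49 ± 0.61, 1.99 ± 0.44 and 1.84 ± 0.45 (SE), with edgeR adjusted p of 0.0419, 0.00656 and 0.0176.

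Zfp59, a KRAB gene on chromosome 7 with 16 fingers, gave inputs of 1.03 and 0.64 TPM and IPs of 6.14 and 6.4 TPM in the Tet1 line. In the Tet2 line inputs were at 1.3, 0.91, 2.28 and 2.32 TPM and IPs at 8.34, 4.52, 8.53 and 8.29 TPM, and in the Tet2ΔRBD line inputs were at 1.99, 0.37, 1.58 and 5.22 TPM and IPs at 11.3, 2.55, 7.62 and 7.5 TPM. As for the genes above, input 4 of the Tet2ΔRBD line was the highest input and IP 2 the lowest IP of its line. The fitted log2 ratios were 2.79 ± 0.47, 1.86 ± 0.31 and 1.70 ± 0.32 (SE), with edgeR adjusted p of 0.0186, 0.00168 and 0.00621.

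Among the other leaders, Zfp958 (3.14 ± 0.57, 1.84 ± 0.41 and 1.98 ± 0.41) and Zfp941 (2.10 ± 0.39, 1.89 ± 0.28 and 1.83 ± 0.28), both KRAB genes, passed in all 3 lines on the fitted log2 scale (edgeR). Zfp2, without the motif, stood at 2.80 ± 0.44 and 1.78 ± 0.31 in the Tet1 and Tet2 lines and passed there, and at 0.93 ± 0.31 in the Tet2ΔRBD line with an edgeR adjusted p of 0.0587. Zfp748 passed in all 3 lines at 2.02 ± 0.42, 1.91 ± 0.31 and 1.17 ± 0.30, but its annotated coding transcript holds the KRAB motif and no finger.

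Of the 54 members higher in at least 1 line, 22 were higher in all 3 lines, 14 of them of the KRAB class, 12 in exactly 2 lines and 20 in exactly 1. Of the 26 members higher in the Tet1 line, 96.2% were also higher in the Tet2 line and 84.6% in the Tet2ΔRBD line, and of the 47 in the Tet2 line 53.2% and 66% were higher in the Tet1 and Tet2ΔRBD lines. No member was higher in one line and lower in another. The matching overlap over all genes is not given here, so these counts do not set the members apart from other genes. Each line has inputs of its own, and across the 207 members the fitted log2 ratios correlated at r = 0.92 between Tet1 and Tet2, 0.92 between Tet1 and Tet2ΔRBD and 0.93 between Tet2 and Tet2ΔRBD, compared with 0.77, 0.81 and 0.89 over 11462 other genes, as a description across genes that share their libraries.

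**Figure D3:**
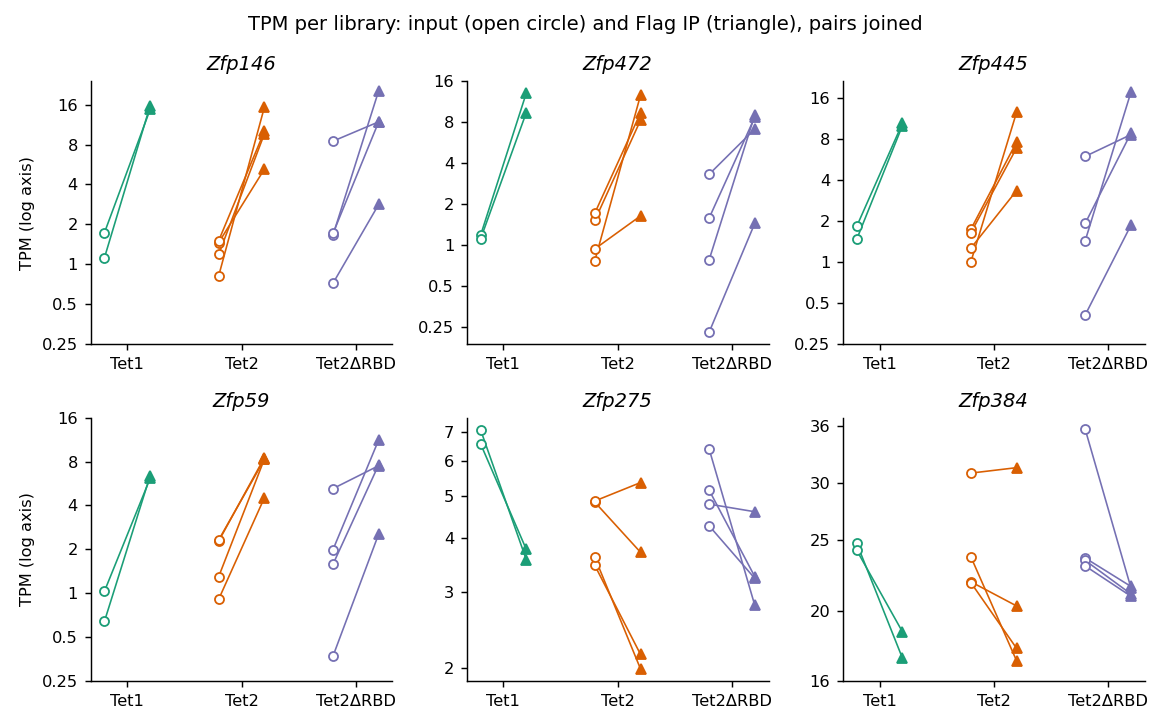
TPM (log axis) of 6 Zfp genes in each input (open circles) and Flag IP (triangles), pairs joined by lines, for the 3 lines. The upper 3 panels and Zfp59 rise in every pair, and Zfp275 and Zfp384 fall in all pairs but Tet2 replicate 2.

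Zfp275, Zfp384 and Zfp414 were the members lower in IP in all 3 lines, and none of them has the KRAB motif. Zfp275 on chromosome X was at 6.59 and 7.1 TPM in the Tet1 inputs and at 3.76 and 3.56 TPM in the IPs. In the Tet2 line inputs were at 4.83, 4.86, 3.45 and 3.6 TPM and IPs at 3.7, 5.36, 2.15 and 1.99 TPM, and in the Tet2ΔRBD line at 4.78, 6.41, 5.15 and 4.26 TPM and 4.59, 2.79, 3.25 and 3.22 TPM. The groups did not overlap in the Tet1 line and overlapped in the others, where Tet2 IP 2 exceeded its input in TPM. The fitted log2 ratios were -1.05 ± 0.22, -0.76 ± 0.16 and -0.86 ± 0.16 (SE), with edgeR adjusted p of 0.0291, 0.00501 and 0.00557.

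Zfp384, a factor of the nuclear matrix, was at 24.8 and 24.2 TPM in Tet1 input and at 17.2 and 18.7 TPM in IP. Its Tet2 inputs were at 21.9, 31.0, 21.9 and 23.7 TPM and its IPs at 20.3, 31.5, 17.7 and 17.05 TPM, and its Tet2ΔRBD inputs at 23.6, 35.6, 23.5 and 23.05 TPM and IPs at 21.6, 21.5, 21.1 and 20.9 TPM. IP lay below input without overlap in the Tet1 and Tet2ΔRBD lines. The fitted log2 ratios were -0.60 ± 0.13, -0.53 ± 0.09 and -0.56 ± 0.09 (SE), with edgeR adjusted p of 0.0324, 0.00223 and 0.00337. Zfp414 stood at -0.53 ± 0.13, -0.57 ± 0.09 and -0.43 ± 0.09. The strongest depletion in the Tet2 line was that of Zfp113, a KRAB gene, at -1.01 ± 0.28 with an edgeR adjusted p of 0.0179, and it was at -0.74 ± 0.39 and -0.47 ± 0.28 in the Tet1 and Tet2ΔRBD lines without passing. Zfp691 was at -0.91 ± 0.11 and -0.63 ± 0.11 and Zfp422 at -0.71 ± 0.13 and -0.53 ± 0.13 in the Tet2 and Tet2ΔRBD lines and passed in both, while Zfp692 (-0.61 ± 0.17) and Zfp579 (-0.58 ± 0.18) passed in the Tet2ΔRBD line. Of the 10 fits that each left out 1 pair, Zfp579 passed in 3 (edgeR adjusted p up to 0.16), Zfp692 in 7 (up to 0.14) and, in the Tet2 line, Zfp113 in 7 (up to 0.0688), with the pairs of their own line among those whose removal ended the call.

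No member was called different between Tet2 and Tet2ΔRBD. In the test of the difference of log2 ratios, Tet2 minus Tet2ΔRBD, edgeR called 0 of 207 members, against 0.0219% of all genes higher and 0.0% lower, and DESeq2 and limma also called 0. At an unadjusted p under 0.05 edgeR gave 5 members, all with the larger ratio in the Tet2 line, and 3.03% of all genes, and the lowest adjusted p was 1.00. The median difference was 0.02 over the members and -0.01 over all genes, with a median SE of 0.25. The interval of single genes was wide: for Zfp146 the difference was 0.69 with an approximate 95% interval from -0.87 to 2.25, and for Zfp472 0.06 from -1.54 to 1.66. The widest differences were those of Zfp605 (-0.97, from -2.47 to 0.52), Zfp2 (0.85, from -0.18 to 1.88) and Zfp748 (0.75, from -0.26 to 1.75), none of which passed. Zfp57, the most abundant member, differed by -0.09, from -0.71 to 0.53.

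The smallest unadjusted p, 0.00958, was that of Zfp296, a nuclear factor of pluripotent cells, whose difference was 0.43 ± 0.14 (SE) with an interval from 0.11 to 0.76. The Tet2 inputs were at 56.2, 113, 54.2 and 60.3 TPM and the IPs at 77.1, 128, 67.3 and 62.8 TPM. The Tet2ΔRBD inputs were at 88.6, 133, 66.9 and 65.2 TPM and the IPs at 77.4, 91.3, 62.4 and 63.6 TPM. In TPM each IP lay above its input in the Tet2 line and below it in the Tet2ΔRBD line, and the fitted ratio was -0.07 ± 0.10 and -0.50 ± 0.10 (edgeR adjusted p of 0.633 and 0.00751). The adjusted p of the difference was 1.00. Between the Tet1 and Tet2 lines no member passed either (edgeR, lowest adjusted p 0.94; 4 members and 3.77% of all genes at an unadjusted p under 0.05).

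**Figure D4:**
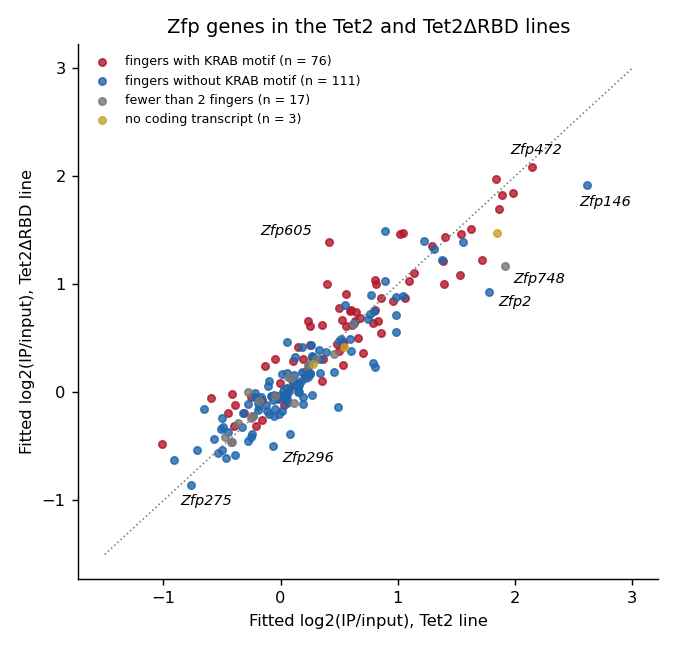
Fitted log2(IP/input) of each Zfp gene in the Tet2 line (horizontal) against the Tet2ΔRBD line (vertical), coloured by class, with the line of equality dotted. The points follow that line (r = 0.93) and no gene passed the test of the difference.

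Within the members the fitted ratio of each line fell with GC content, which it did not over other genes. The rank correlation of the fitted log2 ratio with transcript GC was -0.53, -0.39 and -0.49 over 204 members in the Tet1, Tet2 and Tet2ΔRBD lines, and -0.04, 0.07 and 0.00 over 11021 other expressed genes. With effective length the order was turned: 0.19, 0.46 and 0.39 over other genes, and -0.04, 0.07 and 0.02 over the members. With mean input TPM it was -0.46, -0.45 and -0.50 over the members and -0.16, -0.24 and -0.22 over other genes. The input libraries enter both the mean input TPM and the ratio, and the members were chosen on that TPM. No conclusion is therefore drawn from the coefficients with input TPM. With the number of fingers the rank correlation was 0.23, 0.27 and 0.27. These are descriptions across genes measured in the same libraries.

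Divided by GC into 3 sets of 68 genes, the members of lowest GC (median 41.8%) were higher in 18, 24 and 21 cases and lower in 0, 3 and 2. Those of highest GC (median 57.9%) were higher in 0, 5 and 2 and lower in 2, 7 and 7. As shares, 26.5%, 35.3% and 30.9% of the lowest GC set were higher and 0.0%, 4.41% and 2.94% lower. In the highest GC set 0.0%, 7.35% and 2.94% were higher and 2.94%, 10.3% and 10.3% lower. Of all genes 2.72%, 14.6% and 7.4% were higher and 3.18%, 18.5% and 12.1% lower. The shares of the highest GC set thus lay below those of all genes in both directions. The sets also differed in input level, with medians of 2.14, 5.23 and 11.0 TPM in the lowest, middle and highest GC sets. These shares therefore do not separate GC from input level, and the part of each was not tested. The order was not kept in every pair. Relative to genes of like level and length, the lowest, middle and highest GC sets lay at -0.03, 0.16 and 0.09 in Tet2 pair 2. In Tet2ΔRBD pair 4 they lay at -0.05, -0.12 and 0.11. In each other pair the lowest GC set lay above the highest. In the set of lowest GC, the 40 KRAB genes lay 0.96 ± 0.05, 0.49 ± 0.36 and 0.56 ± 0.40 above genes of like level and length (SD over pairs). The 23 genes without the motif lay 0.72 ± 0.01, 0.29 ± 0.35 and 0.24 ± 0.37 above. In the set of highest GC, 8 KRAB genes lay 0.09, 0.17 and 0.16 above and 54 genes without the motif -0.11, -0.04 and -0.03. Against other genes of like input level and GC, in place of length, the KRAB class lay 0.41, 0.27 and 0.25 above. These divisions were made after the values had been seen. Bulk libraries do not separate fewer cells with a transcript from less of it per cell, and the part of GC in the ratios was not tested.

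**Figure D5:**
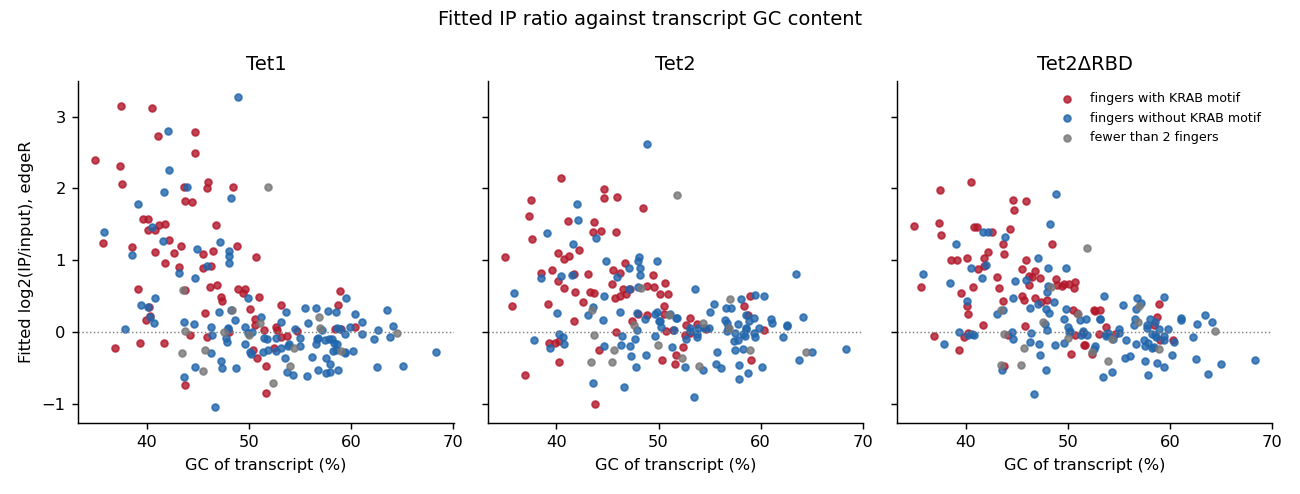
Fitted log2(IP/input) of each Zfp gene with a coding transcript (vertical) against the GC content of its transcript (horizontal), by line and class. Every plotted ratio over 1 belongs to a gene of at most 51.9% GC, among KRAB genes and genes without the motif alike.

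Of 6 KRAB genes known for imprints and retroelements, 4 were expressed, and Zfp708 and Zfp809 were below the limit. Zfp57 was at 147 and 133 TPM in Tet1 input and 149 and 154 TPM in IP. It was at 63.5, 144, 145 and 177.5 TPM in Tet2 inputs and 102, 202, 157 and 167 TPM in IPs, and at 115, 93.2, 220 and 259 TPM in Tet2ΔRBD inputs and 203, 164, 231 and 225 TPM in IPs. Its fitted log2 ratios were -0.07 ± 0.26, -0.01 ± 0.18 and 0.08 ± 0.19 (edgeR adjusted p of 0.91, 0.978 and 0.782), unlike those of its partner Zfp445. Zfp568, which represses a placental Igf2 transcript, was at -0.36 ± 0.19, 0.01 ± 0.13 and -0.05 ± 0.13 and did not pass. Zfp932, a repressor of retroelements, was at 1.19 ± 0.42, 0.82 ± 0.31 and 1.00 ± 0.31 and passed in the Tet2ΔRBD line (edgeR adjusted p of 0.0421), but shared 55.4% of its 50-base words with other genes and passed in only 4 of the 10 fits without 1 pair (edgeR adjusted p up to 0.153).

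Of 9 genes linked to pluripotency, 8 were expressed; 1, 3 and 1 of them were higher and 0, 1 and 2 lower in the Tet1, Tet2 and Tet2ΔRBD lines, beside 2.72%, 14.6% and 7.4% of all genes higher and 3.18%, 18.5% and 12.1% lower. With 8 genes, these counts do not set the list apart from all genes. Zfp462, which guards heterochromatin in ESCs, was higher in all 3, at 1.06 ± 0.26, 1.04 ± 0.19 and 0.89 ± 0.18. Zfp143, an activator at promoters, was at 5.59, 2.82, 3.27 and 3.53 TPM in Tet2 inputs 1 to 4 and at 25.3, 5.56, 6.99 and 6.76 TPM in the IPs, higher in each pair and most in pair 1, with a fitted log2 ratio of 0.99 ± 0.24 (edgeR adjusted p of 0.011). Zfp322a passed in the Tet2 line at 0.75 ± 0.23, and did not without Tet2 replicate 1 or 3 (edgeR adjusted p up to 0.0968). Zfp706, which holds cells back from differentiation, was lower at -0.42 ± 0.08 and -0.46 ± 0.08 in the Tet2 and Tet2ΔRBD lines. Zfp281 (0.82 ± 0.37, 0.24 ± 0.26 and 0.26 ± 0.26), Zfp217 and Zfp819 did not pass in any line.

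Of 9 genes acting on RNA or ribosomes, 8 were expressed. Of these, 1 was higher and 1 lower in the Tet2 line, 12.5% each, near the 14.6% and 18.5% of all genes, and none passed in the others (edgeR), where 2.72% and 7.4% of all genes were higher. Zfp106, an RNA-binding protein of motor neurons, was at 75.6, 52.45, 58.2 and 62.0 TPM in Tet2 inputs and at 212, 131, 83.1 and 79.3 TPM in IPs, with no overlap, at 0.60 ± 0.17 (edgeR adjusted p of 0.0185). Zfp36, which destabilises mRNAs with AU-rich elements, was at -0.47 ± 0.13 (edgeR adjusted p of 0.0214). Both lost the call without Tet2 replicate 1 or 2, with edgeR adjusted p up to 0.071 and 0.142. Zfp346, Zfp593, Zfp598 and Zfp622, which bind double-stranded RNA or serve ribosome assembly and surveillance, lay between -0.25 and 0.25 in the Tet2 line. Of 10 genes of chromatin complexes, 9 were expressed. Zfp131, a BTB zinc finger protein, was higher in every line at 2.12 ± 0.50, 1.85 ± 0.37 and 1.47 ± 0.36. The other 8, among them the partners Zfp532, Zfp592 and Zfp687, did not pass in any line. The share higher was thus 11.1% in each line, beside 2.72%, 14.6% and 7.4% of all genes in the Tet1, Tet2 and Tet2ΔRBD lines. With 9 genes, this count does not set the list apart from all genes. Of the 5 members of highest input, Zfp57, Zfp706, Zfp207, Zfp428 and Zfp296, none was higher in any line. With 5 genes, the lack of higher calls does not set them apart from all genes either. Zfp207, a spindle protein, was lower at -0.50 ± 0.10 and -0.53 ± 0.10 in the Tet2 and Tet2ΔRBD lines.

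Of 9 genes for partners of KRAB proteins, none was higher in the Tet1 or the Tet2ΔRBD line (edgeR), where 2.72% and 7.4% of all genes were. With 9 genes, these counts do not set the list apart from all genes. Their median above like genes was 0.21 ± 0.04, 0.14 ± 0.14 and 0.06 ± 0.20 in the Tet1, Tet2 and Tet2ΔRBD lines (SD over pairs), and its difference from that of the KRAB class was not tested. Trim28, the scaffold, was at 0.32 ± 0.21, 0.29 ± 0.15 and 0.21 ± 0.15. The methyltransferase Setdb1 was higher in the Tet2 line at 0.50 ± 0.15 (edgeR adjusted p of 0.0262), and Mphosph8, a subunit of the HUSH complex, was at 1.29 ± 0.34 in the Tet1 line with an edgeR adjusted p of 0.0517. Smarcad1 and Morc3 were at 0.65 ± 0.28 and 0.52 ± 0.30 there without passing. The HP1 genes Cbx1 and Cbx3 were lower in the Tet2 line, at -0.88 ± 0.17 and -0.96 ± 0.13, and in the Tet2ΔRBD line, at -0.56 ± 0.17 and -0.55 ± 0.13. They made up 22.2% of the list, beside 18.5% and 12.1% of all genes lower in these lines.

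Other zinc finger families are given beside the 2.72%, 14.6% and 7.4% of all genes higher and the 3.18%, 18.5% and 12.1% lower. Of 32 expressed Zbtb genes 2, 6 and 3 were higher and 0, 6 and 2 lower in the Tet1, Tet2 and Tet2ΔRBD lines. Of 15 Zscan and Zkscan genes 1, 1 and 2 were higher and 0, 0 and 1 lower, of 12 Zc3h genes 1, 2 and 2 were higher and none lower, and of 13 Klf genes 1, 4 and 2 were higher and 2, 4 and 4 lower. The median above like genes was 0.01, -0.06 and -0.05 for Zbtb genes, -0.04, 0.04 and 0.06 for Zscan and Zkscan genes and -0.11, -0.06 and -0.08 for Klf genes. For Zc3h genes, whose fingers are of another type, it was 0.18 ± 0.11, 0.23 ± 0.14 and 0.12 ± 0.13 (SD over pairs). The difference between these families and the KRAB class was not tested.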

How the data were processed

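The authors removed ribosomal and transfer RNA reads with Bowtie2, trimmed with Trimmomatic and quantified genes with RSEM on mm9 with RefSeq transcripts. Per the file headers they deposited expected counts, effective lengths and TPM + 1 for each library, the last named here as a score because 1 was added by the authors; 1 was subtracted to give TPM. The members and gene lists were chosen with earlier results of these data known. Expected counts were rounded and fitted for all genes with at least 1 CPM in at least 2 libraries (edgeR 4.0.16, TMM, quasi-likelihood, all 20 libraries, the pair as a block, Benjamini-Hochberg). No statistical test is given for these libraries in the sources used here. IP and input were paired by their numbers. Deviations of same-numbered libraries from their group means correlated at r = 0.579 to 0.862 over expressed genes in the 8 pairs of the Tet2 lines. Values for libraries of different numbers and for the Tet1 pairs are not given, so these correlations do not establish the pairing. SE is the log2 ratio divided by the root of F, and intervals use 7 degrees of freedom. Like genes lay in the same of 10 bins of mean input TPM, each divided into 5 bins of effective length. The members named were the 5 highest and 5 lowest called per line, the 3 largest differences between the Tet2 lines, the 5 of highest input and the lists in the text; genes named for an unadjusted count or a class were chosen after their values were seen.

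Fingers and the KRAB motif were found by spelling in translated coding transcripts of gencode on the same build, since RefSeq proteins were not used here. Simulated counts for the Tet2 comparison were fitted as a check of the code. They were drawn without effects of pair or line, so they do not test the pairing. DESeq2 1.42.0 and limma 3.58.1 were alternatives, as were other filters, bins and pseudocounts, leaving out pairs, and bins by GC (added after seeing the data). Replicates 3 and 4 of both Tet2 lines and both Tet1 pairs carry 1 shared number outside the labels, and merging replicates 3 and 4 was an alternative. The fold changes rest on 21078995 to 37576638 expected counts per library, and no value covers error beyond these libraries.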

Additional observations from a re-analysis of the deposited data

Results flagged for a closer look

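In groups of 4 pairs, 1 pair of a named gene can stand far from the others; chance marks about 1 group in 20, and 104 groups were looked at. In the Tet2 line the log2 ratio of IP to input stood apart at 2.00 for Zfp143, 0.76 for Zfp326, 1.76 for Zfp462 and 2.02 for Zfp59. In the Tet2ΔRBD line it stood apart at 0.15 for Zfp217, -0.70 for Zfp384, 0.47 for Zfp428, 0.47 for Zfp568 and -0.51 for Zfp598. For Zfp296 every pair lay above 0 in the Tet2 line and below 0 in the Tet2ΔRBD line, with means 0.47 apart in TPM + 1; the test of that difference across all genes gave an unadjusted p of 0.00958 and an adjusted p of 1.00 (edgeR).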

How the results depend on the processing

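Members called higher in IP in the Tet1, Tet2 and Tet2ΔRBD lines numbered 26, 47 and 37, and the counts moved with the model. Without the replicate block, so without pairing IP and input, 0, 2 and 0 were called (edgeR; 29, 44 and 35 at an unadjusted p under 0.05 in either direction). DESeq2 called 42 in the Tet1 and 61 in the Tet2ΔRBD line; limma called 103 in the Tet2 and 87 in the Tet2ΔRBD line on log2(TPM + 1), and 105 and 87 on log2(TPM + 0.1). Fitting the compared line alone gave 93 in the Tet1 and 9 in the Tet2ΔRBD line, and merging replicates 3 and 4 gave 15 and 19. Among members of at least 5 TPM 3, 9 and 8 were called. Leaving out 1 pair gave 0 to 38, 31 to 67 and 8 to 50. No difference was called between Tet2 and Tet2ΔRBD or between Tet1 and Tet2 under any alternative run (edgeR; 5 and 4 at an unadjusted p under 0.05); a replicate block between the lines was run for Tet2 against Tet2ΔRBD only.

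Targets in every pair, 136, 108 and 98, became 57, 22 and 6 when IP had to be 1.5 times input, and 57, 47 and 42 at 5 TPM. Centring on expressed genes gave 71 in the Tet2 line, and mean IP against mean input, with no replicate block, gave 185 in the Tet2 and 180 in the Tet2ΔRBD line. Leaving out 1 pair gave 138 to 163, 113 to 138 and 98 to 138.

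The median above like genes, 0.10, 0.08 and 0.10, turned to -0.0084 in the Tet1 and -0.014 in the Tet2 line at 5 TPM and became 0.0027 in the Tet2ΔRBD line. With all genes above 0 TPM it was 0.29, 0.18 and 0.19, against all genes of at least 1 TPM 0.16 in the Tet1 and 0.18 in the Tet2 line, and with bins of input level alone 0.15 in the Tet2 line. Leaving out 1 pair gave 0.08 to 0.12, 0.07 to 0.10 and 0.08 to 0.14. The cause of these changes was not tested. Of the 207 members 102 lay under 5 TPM, and the part of depth was not tested.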
